A study of Sus scrofa with 8 samples.

Results

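The genes described are those of the spliceosome, the particle that removes introns from transcripts. They are the genes that the deposited table assigns to the KEGG spliceosome pathway, without those it also assigns to ribosome biogenesis, which left 121 of 25578 genes (1 gene, SNU13, was left out by the latter condition). The RNA came from pig (Sus scrofa) cells taken along a course towards lung. The 4 stages were pluripotent stem cells (PSC), definitive endoderm (DE, the first endoderm layer), anterior foregut endoderm (AFE, from which the lung buds) and lung progenitor organoids (LPO), with 2 libraries each. The labels separate the stages by cell type and name no genotype, day, medium or inducing agent. They do not tell whether 2 libraries stand for 2 cultures, so the p-values speak of the scatter of these 8 libraries alone, which may be technical.

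A spliceosome is put together anew on each intron from small nuclear ribonucleoproteins (snRNPs), each an RNA inside a ring of Sm or LSm proteins with further proteins of its own. The U1 snRNP marks the start of the intron and the U2 snRNP its branch point, the U4/U6 and U5 snRNPs join as a tri-snRNP, and RNA helicases with the PRP19 complex then remodel the particle for catalysis. SR proteins and hnRNPs bind the transcript and help or hinder the choice of sites, and the exon junction and TREX complexes stay on the product and lead it out of the nucleus.

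The libraries held 36004372 to 67566269 counts, of which about 4 stand for 1 read pair, and all 121 genes were above 0 in every library and entered the tests. Levels are given as CPM (counts per 1e6 counts) scaled by the TMM method, or as FPKM (per length of transcript) where genes are set against each other. Between the libraries of a stage, 118 (PSC), 119 (DE), 121 (AFE) and 121 (LPO) of the 121 genes lay within 1.5-fold. The stage markers followed their labels in part: the pluripotency factor POU5F1 had 4453 and 5156 CPM in PSC, the endoderm factor SOX17 251 and 228 CPM in DE, and the lung factor NKX2-1 20.2 and 19.5 CPM in AFE and 33.7 and 34.2 CPM in LPO with 0 in the 4 PSC and DE libraries. The surfactant gene SFTPC had 0.262 and 0.441 CPM in LPO and 0 elsewhere. Of the 5 tested markers listed for LPO, 3 were called higher and 1 lower in LPO against AFE. That is 60% and 20%, beside 30.2% and 29.6% of all genes. The 5 markers listed for AFE (FOXA2, also listed for DE, SOX2, HHEX, FOXE1 and ISL1) did not in sum peak there. Their sum was 362 to 372 CPM in DE and 99.7 to 107 CPM in AFE. In AFE against DE, 1 of them was called higher and 2 lower (20% and 40%, beside 17.9% and 17.4% of all genes). In bulk RNA, fewer cells of a type and less RNA per cell cannot be told apart.

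Transcripts of the spliceosome took a smaller share of the library at each later stage. PSC libraries gave the 121 genes 3.30% and 3.35% of all counts, DE libraries 2.1% and 2.24%, AFE libraries 1.96% and 1.96%, and LPO libraries 1.55% and 1.54%. Of summed FPKM the share was 2.37% and 2.36% in PSC libraries, 1.68% and 1.77% in DE libraries, 1.53% and 1.54% in AFE libraries, and 1.35% and 1.33% in LPO libraries. The libraries of neighbouring stages did not overlap in either share. Between DE and AFE the groups parted. Mean summed CPM fell from 1900 to 1140 for the pathway's HSP70 chaperones and from 4910 to 4240 for the hnRNPs. It rose from 1000 to 1170 for the Sm ring and from 1370 to 1500 for the PRP19 group. Between AFE and LPO the FPKM share of the hnRNPs rose, from 0.315% and 0.312% to 0.399% and 0.391%. Their level did not rise: mean summed CPM fell from 4240 to 2740 and mean summed FPKM from 1460 to 1370. The FPKM of all genes together fell, from 466145 and 467008 in AFE libraries to 345563 and 347824 in LPO libraries. The FPKM share of the Sm ring fell, from 0.137% and 0.141% to 0.040% and 0.040%. PSC had the highest stage mean for 86 of the 121 genes (26.5% of all genes tested), DE for 10 (16.8%), AFE for 15 (18.4%) and LPO for 10 (38.4%). The median member stood at 53.3 FPKM in PSC with 29 members at 100 FPKM or more, at 33.7 FPKM in DE with 20 such members, at 31.7 FPKM in AFE with 18, and at 22.6 FPKM in LPO with 6.

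The losses came at the first step and the last. In DE against PSC, 82 of 121 members fell (67.8%, beside 23% of all 19346 genes tested) and 18 rose (14.9%, beside 30.8%), by edgeR's quasi-likelihood test at a Benjamini-Hochberg adjusted p under 0.05; the median log2 change was -0.61, beside 0.08 for all genes. In AFE against DE, 31 fell (25.6%, beside 17.4% of all genes) and 16 rose (13.2%, beside 17.9%), with a median of -0.05 beside 0. These counts rest on both AFE libraries, being 20 lower and 8 higher without AFE replicate 1 and 16 lower and 7 higher without AFE replicate 2. In LPO against AFE, 89 fell (73.6%, beside 29.6%) and 18 rose (14.9%, beside 30.2%), with a median of -1.06 beside 0.09, and over the whole course, LPO against PSC, 98 fell (81%, beside 28.8%) and 12 rose (9.92%, beside 41.5%), with a median of -1.54 beside 0.49. Neighbouring comparisons share a stage, so their counts are not independent of each other. Of the 121 members, 118 differed among the stages by the F test (79.2% of all genes), the exceptions being HSPA1L, SYF2 and 1 gene without a name. The tests disagree for HSPA1L, which averaged only 0.489 FPKM. It was called higher in DE against PSC (log2 change 1.65) and in LPO against PSC (1.775). It is thus among the 18 and the 12 that rose.

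**Figure D1:**
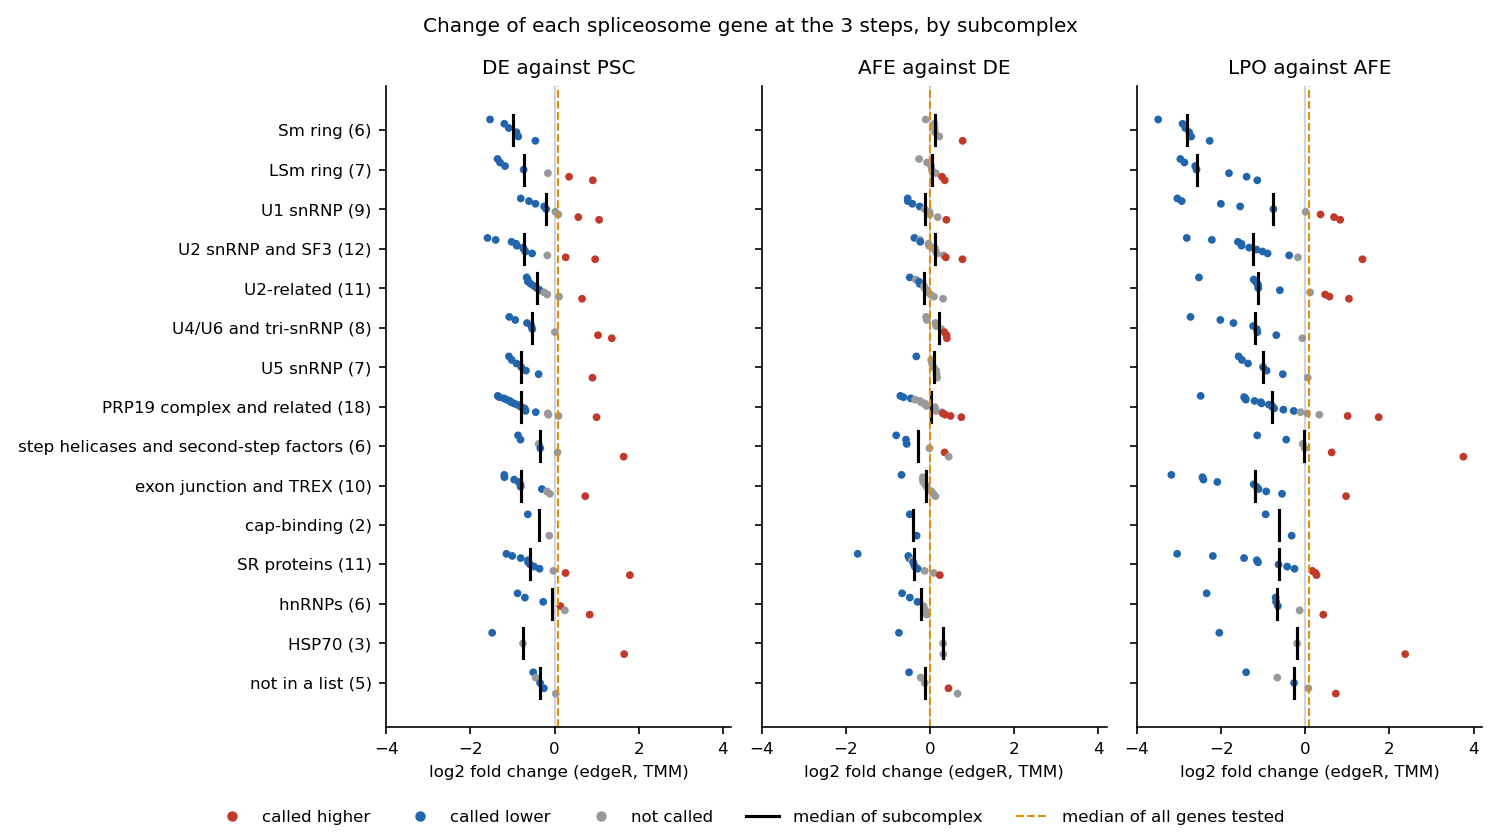
Each point is 1 of the 121 spliceosome genes, placed by its log2 fold change (horizontal axis) at each of the 3 steps, the later stage set against the earlier; lines of points are subcomplexes with their number of genes, black bars their medians, colours the edgeR call and the dashed line the median of all genes. The Sm and LSm rings lie farthest to the left in LPO against AFE, with medians of -2.80 and -2.58.

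The range of the stage means differed among members, and its median was below that of all genes tested. The stage with the highest mean exceeded the stage with the lowest by a median of 3.19-fold (quartiles 2.19 and 5.37), beside 5.52-fold for all genes tested. The 2 sets were not matched for level. Of the members, 115 averaged 5 FPKM or more, whereas 9676 genes of the whole table passed a filter of 5 FPKM in 2 libraries. In LPO against AFE, 64 of the 121 members fell by 2-fold or more (beside 20.6% of all genes) and 6 rose as far (beside 22.7%). Markers of other processes moved along with this step. All 10 cell cycle genes examined, among them CDK1 and PCNA, were called lower in LPO than in AFE (beside 29.6% of all genes). Their summed level was 358 to 369 CPM in LPO, against 1180 to 1190 CPM in AFE. Of 7 genes of connective tissue cells such as the collagen genes COL1A1 and COL3A1, 6 were called higher (85.7%, beside 30.2% of all genes). Their sum was 6380 to 6560 CPM in LPO, against 336 to 339 CPM in AFE. In DE against PSC, 5 of the cell cycle genes were called lower and 4 higher (50% and 40%, beside 23% and 30.8% of all genes). Their sums were 1420 to 1450 CPM in DE and 1910 to 1920 CPM in PSC. At that step 6 of the 7 connective tissue genes were called higher (85.7%, beside 30.8% of all genes), as were all 5 endothelial genes examined. The connective tissue genes had sums of 134 to 282 CPM in DE and 9.66 to 10.2 CPM in PSC. The endothelial genes had sums of 54.6 to 92.7 CPM in DE and 2.55 to 2.70 CPM in PSC. The part of cell division or of connective tissue or endothelial cells in the members' changes was not tested.

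The Sm proteins, which form the ring on the U1, U2, U4 and U5 RNAs, changed together. All 6 members fell in DE against PSC (median log2 change -0.996) and all 6 again in LPO against AFE (median -2.80), while in AFE against DE 1 rose and 5 were not called. Among all genes 23% were called lower in DE against PSC and 29.6% in LPO against AFE. In AFE against DE 17.9% were called higher. SNRPF had 11.3 and 11.9 CPM in LPO, against 136 and 125 CPM in AFE, an 11.3-fold lower level (log2 change -3.50, SE 0.11, adjusted p = 2.88e-07). SNRPD3 had 35.7 and 35.6 CPM in LPO, against 266 and 272 CPM in AFE (log2 change -2.92, SE 0.09, adjusted p = 3.14e-07). For both genes the DE and AFE libraries overlapped, and the LPO libraries lay far below every other library.

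SNRPD1 held 133 and 150 CPM in DE, against 370 and 450 CPM in PSC, which was the largest fall of a ring protein at that step (log2 change -1.53, SE 0.11, adjusted p = 1.27e-05). SNRPD2 took another path, with 306 and 316 CPM in AFE, against 189 and 174 CPM in DE (log2 change 0.78, SE 0.11, adjusted p = 0.00131), and 66.2 and 62.7 CPM in LPO. Summed over the ring, CPM in LPO came to 8.63% of that in PSC. The last ring protein, SNRPB, is not assigned to the pathway by the table; it had 107 and 107 CPM in LPO, against 495 and 535 CPM in AFE (log2 change -2.27, SE 0.07), but rose in DE, with 419 and 449 CPM there, against 315 and 298 CPM in PSC.

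The LSm proteins, which close the ring on U6 RNA, fell in LPO without exception, 7 of 7 with a median log2 change of -2.58. Among all genes 29.6% were called lower in LPO against AFE. LSM7 had 6.46 and 6.33 CPM in LPO, against 48.9 and 51.2 CPM in AFE (log2 change -2.97, SE 0.13, adjusted p = 8.2e-07). LSM4 had 33.8 and 33.3 CPM in LPO, against 240 and 251 CPM in AFE (log2 change -2.87, SE 0.07, adjusted p = 1.67e-07). At the first step the ring divided: LSM3, LSM5, LSM6 and LSM8 fell, LSM2 was not called, and LSM4 and LSM7 rose. The falls made up 57.1% and the rises 28.6% of the ring, beside 23% and 30.8% of all genes. LSM3 had 90.4 and 108 CPM in DE, against 237 and 272 CPM in PSC (log2 change -1.35, SE 0.11), whereas LSM7 had 46.6 and 58.2 CPM in DE, against 28.0 and 27.8 CPM in PSC (log2 change 0.91, SE 0.12). The rise of LSM4, with a log2 change of 0.34, was not called with another set of size factors (those of DESeq2) or with an offset for transcript length.

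**Figure D2:**
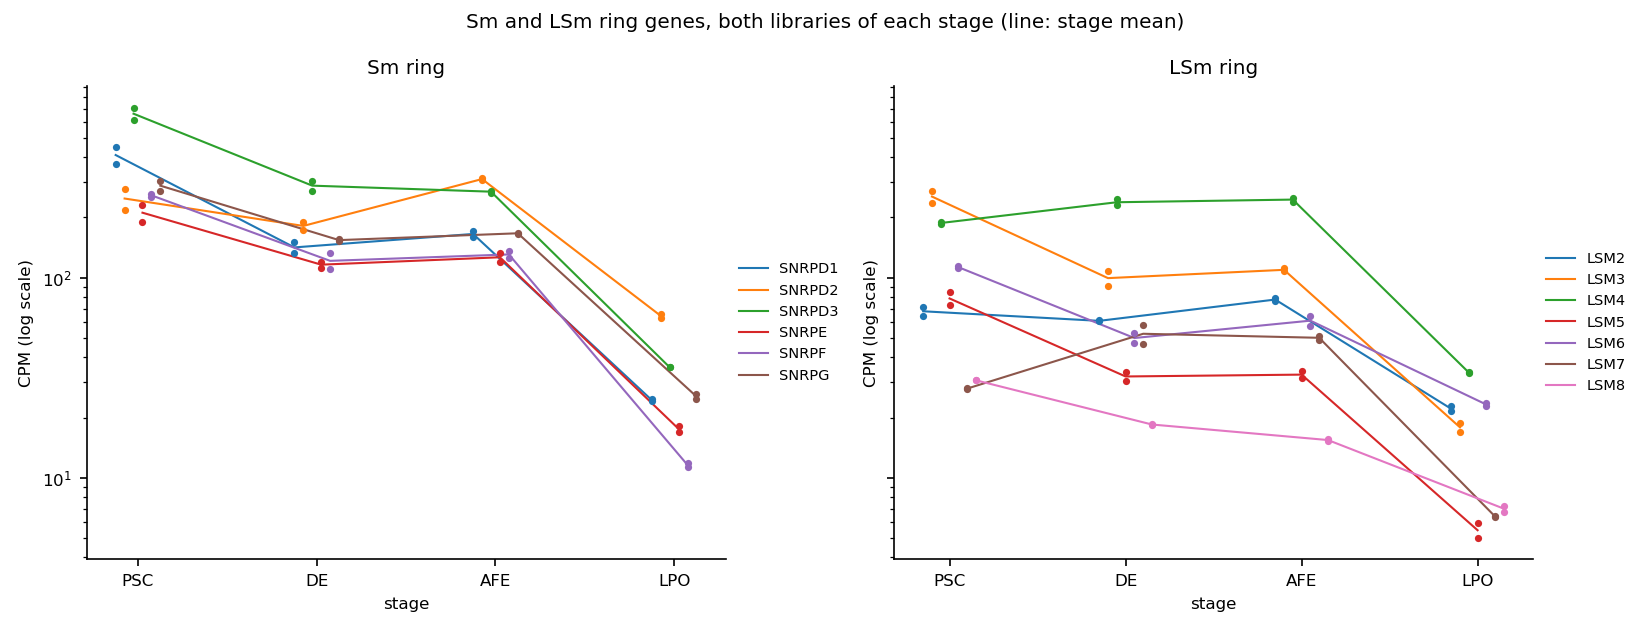
Scaled CPM (log axis) of the 6 Sm and 7 LSm ring genes at the 4 stages; points are the 2 libraries of a stage and lines join stage means. All 13 genes have their lowest values in LPO, with SNRPF at 11.3 and 11.9 CPM there.

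Of 9 members of the U1 snRNP and proteins that bind it, 5 fell and 3 rose in LPO against AFE. That is 55.6% and 33.3%, beside 29.6% and 30.2% of all genes, so the share that rose was near that of all genes. The U1 proteins that touch the RNA or its ring were among those that fell. SNRPA, which binds a stem loop of U1 RNA, had 39.5 and 37.8 CPM in LPO, against 318 and 317 CPM in AFE (log2 change -3.04, SE 0.10, adjusted p = 3.7e-07), although it had risen in DE, to 257 and 302 CPM there, against 142 and 126 CPM in PSC. SNRNP70, the U1-70K protein, had 124 and 130 CPM in LPO, against 364 and 378 CPM in AFE. The libraries of LPO lay below all others for SNRPA and SNRNP70. PRPF40B, another protein that binds the U1 snRNP, had 66.1 and 65.8 CPM in LPO, against 112 and 110 CPM in AFE (log2 change -0.76, SE 0.11, adjusted p = 0.00049), and was not called with library totals in place of TMM.

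Of the 12 proteins of the U2 snRNP and its SF3a and SF3b parts, which hold the branch point, 10 fell in LPO against AFE, 1 was not called and 1 rose. The falls were 83.3% and the rise 8.33%, beside 29.6% and 30.2% of all genes. SF3B5 had 18 and 15.3 CPM in LPO, against 112 and 122 CPM in AFE (log2 change -2.81, SE 0.10, adjusted p = 4.56e-07), after a rise in AFE over DE (log2 change 0.77). PHF5A had 18 and 15.7 CPM in LPO, against 77.5 and 79.3 CPM in AFE, and 72.8 and 72.3 CPM in DE, against 199 and 238 CPM in PSC (log2 change -1.59, SE 0.11, adjusted p = 1.01e-05 for DE against PSC). SF3A3 also fell at both of those steps, by 1.40 and 1.33 on the log2 scale. SF3B1, the large scaffold of SF3b that clamps the branch point, went the other way. It had 814 and 792 CPM in LPO, against 325 and 302 CPM in AFE, a 2.56-fold higher level (log2 change 1.36, SE 0.07, adjusted p = 1.83e-06), and the LPO libraries lay above every other library. SF3B3, another large SF3b protein, had 170 and 170 CPM in LPO and 189 and 193 CPM in AFE and was not called (adjusted p = 0.104).

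Among 11 proteins that act around the U2 snRNP, 7 fell and 3 rose in LPO against AFE. That is 63.6% and 27.3%, beside 29.6% and 30.2% of all genes, so the share that rose was near that of all genes. U2AF1, which reads the end of the intron, had 51.5 and 57.0 CPM in LPO, against 315 and 310 CPM in AFE (log2 change -2.53, SE 0.08, adjusted p = 3.12e-07). Its partner U2AF2 fell less, with 132 and 136 CPM in LPO, against 300 and 326 CPM in AFE (log2 change -1.23, SE 0.15, adjusted p = 0.000195), and its call as higher in DE than in PSC (log2 change 0.65) was lost with the length offset (log2 change 0.29, adjusted p = 0.113). With that offset its log2 change in LPO against AFE was -0.63. SMNDC1, a splicing factor related to the SMN protein, rose, with 75.7 and 72.0 CPM in LPO, against 34.1 and 37.9 CPM in AFE (log2 change 1.04, SE 0.10, adjusted p = 4.43e-05).

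In the U4/U6 and tri-snRNP group, 7 of 8 members fell in LPO against AFE (87.5%, beside 29.6% of all genes) and 1, PRPF3, was not called. PPIH, a prolyl isomerase bound to U4/U6, had 15.5 and 16.9 CPM in LPO, against 106 and 108 CPM in AFE (log2 change -2.73, SE 0.09, adjusted p = 2.88e-07). PRPF31, which joins U4/U6 to U5, had 49.7 and 49.4 CPM in LPO, against 200 and 201 CPM in AFE (log2 change -2.02, SE 0.07, adjusted p = 4.05e-07). PRPF31 and SART1, another tri-snRNP protein, were also the 2 members of the group that rose at the first step. PRPF31 had 147 and 158 CPM in DE, against 60.1 and 58.8 CPM in PSC (log2 change 1.36, SE 0.07, adjusted p = 2.85e-06), and SART1 had 233 and 248 CPM in DE, against 136 and 99.2 CPM in PSC (log2 change 1.03). The libraries of DE and PSC did not overlap for either gene.

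Of 7 members of the U5 snRNP, 6 fell in LPO against AFE (85.7%, beside 29.6% of all genes). EFTUD2, its GTPase, had 124 and 125 CPM in LPO, against 314 and 324 CPM in AFE (log2 change -1.36, SE 0.07, adjusted p = 1.38e-06). PRPF8, the scaffold at the heart of the spliceosome, was the member not called, with 284 and 286 CPM in LPO and 274 and 273 CPM in AFE (log2 change 0.06, SE 0.06, adjusted p = 0.454), although it was called lower with an offset for transcript length (log2 change -0.53, adjusted p = 0.000285). PRPF8 had fallen at the first step, with 250 and 266 CPM in DE, against 465 and 499 CPM in PSC (log2 change -0.90, SE 0.06, adjusted p = 1.23e-05). PRPF6, which bridges the tri-snRNP, rose in DE, to 246 and 252 CPM there, against 141 and 126 CPM in PSC.

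Of 18 members of the PRP19 complex and its neighbours, which take part in activation, 14 fell and 1 rose in DE against PSC. That is 77.8% and 5.56%, beside 23% and 30.8% of all genes, with a median log2 change of -0.80. PRPF19, the ubiquitin ligase of the complex, had 106 and 130 CPM in DE, against 284 and 305 CPM in PSC (log2 change -1.31, SE 0.10, adjusted p = 1.86e-05), was higher again in AFE at 198 and 200 CPM, and had 86.7 and 85.9 CPM in LPO. XAB2 was the member that rose, with 96.2 and 97.5 CPM in DE, against 50.3 and 46.6 CPM in PSC (log2 change 1.00, SE 0.07, adjusted p = 1.5e-05). In LPO against AFE 13 fell (72.2%, beside 29.6% of all genes) and 2, CDC5L and AQR, rose (11.1%, beside 30.2%). CDC5L, a core scaffold of the complex, had 204 and 208 CPM in LPO, against 102 and 103 CPM in AFE (log2 change 1.01, SE 0.07, adjusted p = 9.28e-06). The helicase AQR had 39.3 and 36.5 CPM in LPO, against 11.5 and 11.1 CPM in AFE, but a gene that overlaps it on the same strand holds 57.7% as many counts, so its level is uncertain.

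Of the 6 helicases and factors that drive the catalytic steps, 2 were called lower and 2 higher in LPO against AFE. That is 33.3% each way, near the 29.6% and 30.2% of all genes, and the median log2 change was -0.04. With an offset for transcript length the group leaned lower, 4 being called lower and 2 higher with a median of -0.53. DHX8, which releases the spliced product, had 33.4 and 30.1 CPM in LPO and 33.4 and 30.7 CPM in AFE and was not called, but with that offset it was called lower (log2 change -0.49, adjusted p = 0.00337). It had fallen at the step before, with those values in AFE, against 52.5 and 59.0 CPM in DE (log2 change -0.80, SE 0.10, adjusted p = 0.000675). SLU7, which acts in the choice of the downstream splice site, rose, with 29.0 and 26.5 CPM in LPO, against 17.7 and 18.3 CPM in AFE (log2 change 0.63, SE 0.14, adjusted p = 0.00529). CDC40 showed the largest change of any member, with 25.4 and 26.8 CPM in LPO, against 2.11 and 1.75 CPM in AFE (log2 change 3.76, SE 0.42, adjusted p = 0.000112). An overlapping gene on the opposite strand holds 99.9% as many counts as CDC40, and the sources used here do not say whether strand was used in counting, so the value is uncertain.

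Proteins of the exon junction and TREX complexes fell in 9 of 10 cases in LPO against AFE (90%, beside 29.6% of all genes). The near-identical exon junction proteins MAGOH and MAGOHB moved alike, although reads of near-identical copies may be split between them. MAGOH had 12.3 and 11 CPM in LPO, against 58.3 and 66.4 CPM in AFE (log2 change -2.42, SE 0.12, adjusted p = 1.71e-06), and MAGOHB had 5.30 and 6.12 CPM in LPO, against 31.9 and 30.2 CPM in AFE (log2 change -2.44, SE 0.13, adjusted p = 1.7e-06). Their partner RBM8A had 43.9 and 40.1 CPM in LPO, against 174 and 184 CPM in AFE, and 439 and 479 CPM in PSC. THOC2, the large scaffold of the THO part of TREX, rose, with 68.3 and 64.1 CPM in LPO, against 37.1 and 30.6 CPM in AFE (log2 change 0.97, SE 0.12, adjusted p = 0.000259). The export adaptor ALYREF had 34.0 and 30.3 CPM in LPO, against 287 and 296 CPM in AFE, with an overlapping gene that holds 31.7% as many counts. Of the cap-binding genes, NCBP2 fell in LPO, with 73.9 and 70.4 CPM there, against 142 and 135 CPM in AFE (log2 change -0.94, SE 0.09). NCBP1 was also called lower (log2 change -0.32), but its direction turned with library totals (0.16) and with limma on log2 FPKM (0.15 and 0.17).

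Of 11 SR proteins, 8 fell in DE against PSC, 7 in AFE against DE and 8 in LPO against AFE. That is 72.7%, 63.6% and 72.7%, beside 23%, 17.4% and 29.6% of all genes. Rises made up 18.2%, 9.09% and 27.3% at these steps, beside 30.8%, 17.9% and 30.2%. SRSF7 had 27 and 25.7 CPM in LPO, against 214 and 221 CPM in AFE and 542 and 577 CPM in PSC, 21.2-fold lower over the whole course (log2 change -4.41, SE 0.10, adjusted p = 4.39e-08, LPO against PSC). SRSF3 had 57.4 and 57.1 CPM in LPO, against 270 and 255 CPM in AFE (log2 change -2.20, SE 0.08, adjusted p = 4.72e-07). SRSF4 was called higher at each of the 3 steps, its libraries reading 108 and 106 CPM in PSC, 131 and 126 in DE, 151 and 152 in AFE, and 169 and 170 in LPO. The steps of SRSF4 were small: the last one (log2 change 0.17, adjusted p = 0.0467) was not called without any 1 of the 4 AFE and LPO libraries, and the first one was not called with DESeq2's size factors and reversed with the length offset.

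TRA2A and TRA2B are relatives that bind purine-rich exon enhancers. TRA2B had 111 and 108 CPM in LPO, against 173 and 169 CPM in AFE (log2 change -0.64, SE 0.08, adjusted p = 0.000179), a fall that was not called with library totals in place of TMM. TRA2A had 62.5 and 64.5 CPM in LPO, against 57.0 and 50.1 CPM in AFE (log2 change 0.24, adjusted p = 0.0406), a call that did not hold without AFE replicate 2 or either LPO library, and the change turned to -0.23 (adjusted p = 0.0615) with the length offset. SRSF2 peaked in DE, at 112 and 127 CPM, against 37.8 and 31.4 CPM in PSC (log2 change 1.79, SE 0.15), but the gene on the other strand, MFSD11, holds 109% as many counts.

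The kinases that phosphorylate SR proteins are not assigned to the pathway. Of the 7 examined, 4 rose in LPO against AFE (57.1%, beside 30.2% of all genes) and 2 fell (28.6%, beside 29.6%). CLK1 had 151 and 136 CPM in LPO, against 25.6 and 23.5 CPM in AFE (log2 change 2.54, SE 0.12, adjusted p = 1e-06), and CLK4 had 60.7 and 56.7 CPM in LPO, against 15.7 and 14.8 CPM in AFE (log2 change 1.94, SE 0.13, adjusted p = 5.14e-06). SRPK1 had 62.8 and 66.5 CPM in LPO, against 136 and 124 CPM in AFE (log2 change -1.01, SE 0.07, adjusted p = 1.02e-05). CLK1 and CLK4 thus stood above all other libraries in LPO, and SRPK1 below them.

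**Figure D3:**
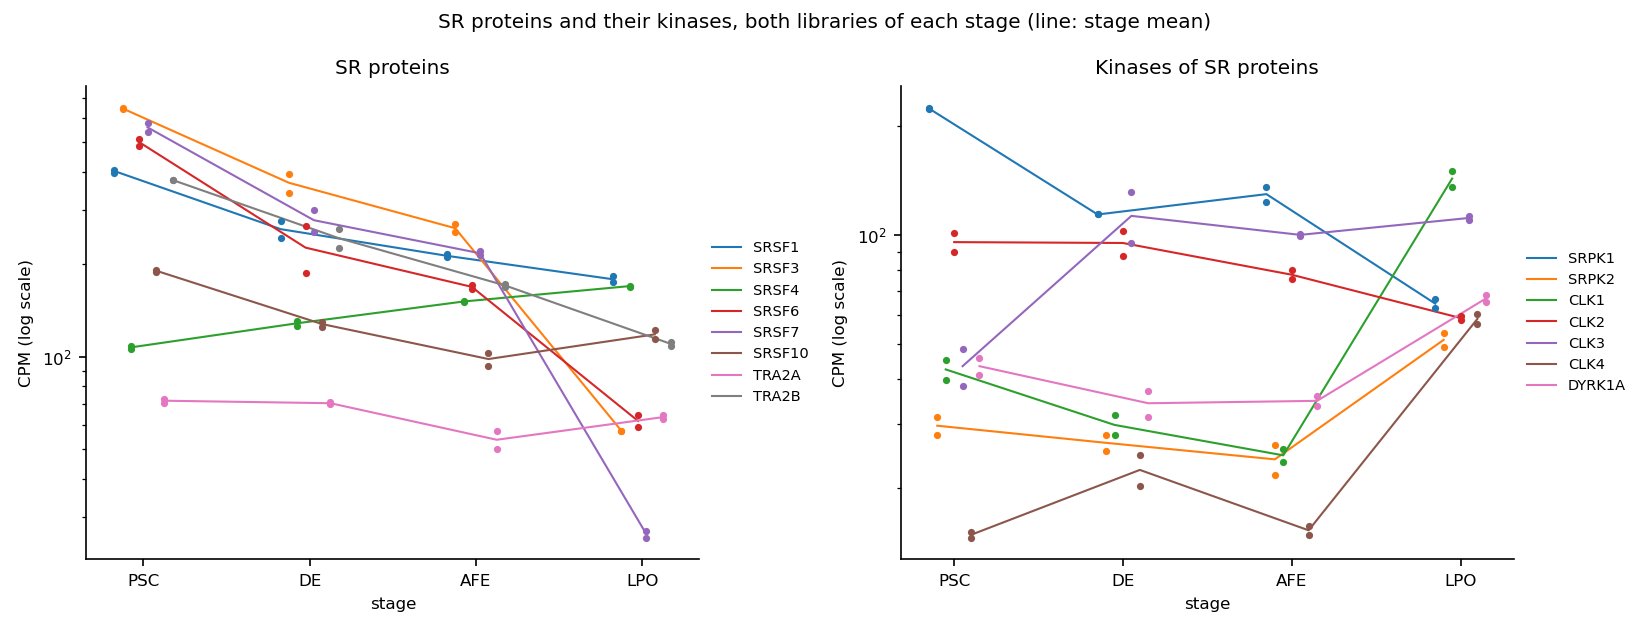
Scaled CPM (log axis) of 8 SR proteins and of 7 kinases that act on SR proteins at the 4 stages; points are the 2 libraries of a stage and lines join stage means. SRSF7 ends at 27 and 25.7 CPM in LPO, whereas CLK1 has its highest values there, 151 and 136 CPM.

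Of 6 hnRNPs, 4 fell (66.7%, beside 29.6% of all genes) and 1 rose (16.7%, beside 30.2%) in LPO against AFE. HNRNPA1, a repressor of exon use, had the highest FPKM of all members at every stage, averaging 747 FPKM in LPO and 1158 FPKM in PSC. It had 1357 and 1331 CPM in LPO, against 2171 and 2175 CPM in AFE (log2 change -0.69, SE 0.06, adjusted p = 3.93e-05), and this fall was not called with the length offset. HNRNPM had 119 and 126 CPM in LPO, against 614 and 626 CPM in AFE (log2 change -2.34). HNRNPK had 543 and 540 CPM in LPO, against 402 and 402 CPM in AFE (log2 change 0.43, SE 0.05, adjusted p = 0.000148).

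HSPA8, a constitutive HSP70 chaperone that the pathway lists beside the splicing factors, fell at every step and by 19.2-fold overall. It had 5046 and 5527 CPM in PSC, 1649 and 2136 CPM in DE, 1135 and 1137 CPM in AFE, and 272 and 280 CPM in LPO (log2 change -4.26, SE 0.13, adjusted p = 8.38e-08, LPO against PSC). No libraries of different stages overlapped. The other HSP70 genes in the pathway were low: HSPA6 rose, with 11.1 and 12.3 CPM in LPO, against 2.11 and 2.40 CPM in AFE (log2 change 2.37, SE 0.44, adjusted p = 0.00194), and HSPA1L averaged 0.489 FPKM. These genes resemble one another, so reads could be assigned to the wrong copy. Without a role in the lists were RP9 and 4 genes that the table does not name; RP9 had 12.2 and 10.6 CPM in LPO, against 31.5 and 29.0 CPM in AFE (log2 change -1.41), but was not called with the length offset (log2 change -0.13, adjusted p = 0.378).

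The 18 members that rose in LPO against AFE were thus spread over the groups, with SF3B1, CDC5L, SMNDC1, THOC2 and SLU7 among them, and the 18 that rose in DE against PSC included SNRPA, PRPF31, SART1, SF3A2, XAB2 and LSM7. SF3A2, a zinc finger protein of SF3a, had 102 and 113 CPM in DE, against 60.8 and 49.5 CPM in PSC (log2 change 0.96), and 37.9 and 40.6 CPM in LPO. Of the 18 members that rose in DE, 12 fell in LPO against AFE, beside 89 of all 121. The 6 genes named from the second set had their highest stage mean in DE or AFE, whereas SF3B1, SRSF4 and CDC40, also called higher in DE than in PSC, had theirs in LPO. The calls of SF3B1 and SRSF4 in DE did not hold with the length offset (log2 change 0.01 for SF3B1).

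**Figure D4:**
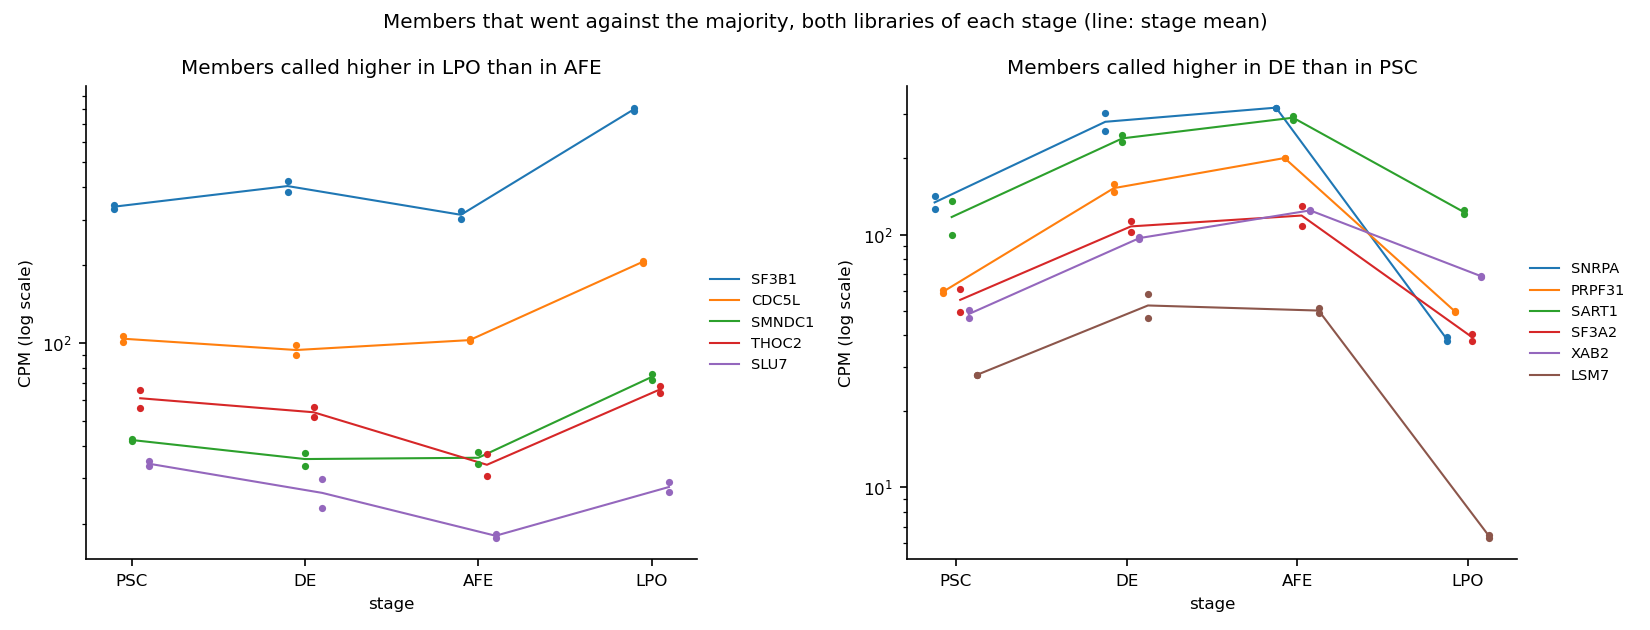
Scaled CPM (log axis) of 5 members called higher in LPO than in AFE and of 6 called higher in DE than in PSC; points are the 2 libraries of a stage and lines join stage means. SF3B1 reaches 814 and 792 CPM in LPO, and LSM7 falls to 6.46 and 6.33 CPM there.

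In LPO, changes of all genes moved with transcript length. From the deposited counts and FPKM a length was derived for each gene averaging 0.1 FPKM or more. The 14333 genes with such a length that passed a minimum of 1 CPM formed 10 classes of equal size. They are the genes meant by all genes where classes are named. In LPO against AFE their median log2 change was -1.32 in the class with the shortest transcripts (up to 1.49 kb). It was 0.77 in the class with the longest (above 7.66 kb). Members had medians of -1.81 and 0.12 in the same classes, and 95 of 121 lay below the all-gene median of their own class, by a median of 0.84. Ring proteins have short transcripts, with a median of 1.98 kb for Sm and 1.43 kb for LSm genes, beside 3.54 kb for all members. When the trend was taken out by an offset for length in each library, 90 members fell and 20 rose in LPO against AFE, with 27.2% of all genes lower and 30.5% higher and a median of -0.74. The 6 Sm genes were still called lower (median -2.33), as were the 7 LSm genes (median -1.57), and SF3B1 (log2 change 1.28), CDC5L (0.51), SMNDC1 (0.35), THOC2 (0.37) and SLU7 (0.52) were still called higher. BUD31 and SNRNP27, with log2 changes of -1.06 and -1.15 before, had 0.23 and 0.39. In DE against PSC the offset left 90 members lower and 11 higher.

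**Figure D5:**
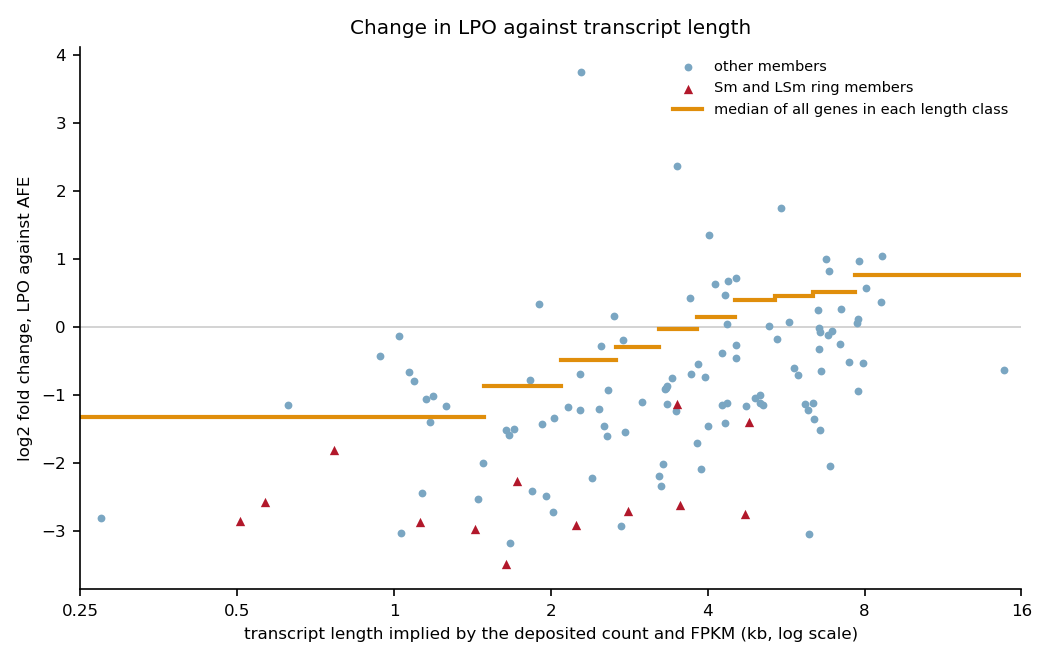
Log2 fold change in LPO against AFE (vertical axis) of the 121 members by transcript length in kb (log axis), with the 13 Sm and LSm ring genes as triangles. Bars are medians of all genes in each of 10 classes of length, which hold 14333 genes together. The bars climb from -1.32 to 0.77, and the ring genes lie below them.

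Scaling also moved the calls in LPO. With library totals in place of TMM the median of all genes in LPO against AFE stood at 0.58, against 0.09 with TMM, and 74 members were called lower and 33 higher. On log2(FPKM + 1) with limma 75 were called lower and 33 higher. Relative to the median of all genes the members' median was -1.15 with either scaling of counts. That holds almost by construction, since a scaling factor shifts all genes of a library alike. The difference was -0.84 with the filter of 5 FPKM in 2 libraries. It was -0.67 with limma on log2(FPKM + 1) and -0.99 on log2(FPKM + 0.1).

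Apart from splicing, 81 of the 121 members belong to no other pathway in the table, while 13 are listed under RNA transport, 10 under mRNA surveillance and 7 under RNA degradation. They lie on many chromosomes, with 19 on chromosome 6 (15.7% of members and 10.02% of all genes). HSPA8, for example, lies on chromosome 9 at 49982284 to 49990508 on the minus strand and SNRPF on chromosome 5 at 87604596 to 87622879 on the minus strand, in the coordinates of the table, for which the sources used here name no build. Another gene overlaps 33 members, and in 19 of them it holds at least 10% as many counts.

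Genes that build the snRNPs, a list outside the pathway, fell alongside the ring proteins. Of 16 genes, 13 fell in DE against PSC and 13 in LPO against AFE (81.2% each, beside 23% and 29.6% of all genes). In the same comparisons 1 and 2 were higher (6.25% and 12.5%, beside 30.8% and 30.2%). PRMT5, the methyltransferase that modifies Sm proteins before the ring is loaded, had 51.9 and 53.8 CPM in LPO, against 136 and 145 CPM in AFE (log2 change -1.41, SE 0.08, adjusted p = 2.16e-06). Its partner WDR77 had 13.5 and 14.6 CPM in LPO, against 55.3 and 63.8 CPM in AFE (log2 change -2.09, SE 0.15), and 35.3 and 46.3 CPM in DE, against 138 and 150 CPM in PSC. COIL, the scaffold of Cajal bodies in which snRNPs mature, went the other way in LPO, with a log2 change of 1.18 against AFE.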

How the data were processed

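The deposited table holds the authors' expected counts per gene, which are whole numbers and carry no scaling between libraries, and FPKM computed by the authors. Per the labels, oligo(dT)-captured RNA was made into stranded libraries. Among the tools in the submitters' processing notes are StringTie 2.1.6, HISAT2 2.2.1 and cutadapt 1.9, beside edgeR and DESeq2 without versions; the build of the genome is not given in the sources consulted. Counts of 19346 genes passed edgeR's filterByExpr and were scaled with TMM (factors 0.901 to 1.27); R 4.3.3, edgeR 4.0.16, limma 3.58.1, DESeq2 1.42.0, Python 3.11.15 and matplotlib 3.10.9 were used. All 8 libraries entered a single quasi-likelihood fit with stage as the factor, and p-values were adjusted by Benjamini-Hochberg over all genes tested. The fit was tested on simulated data. With 2 libraries against 2, an exact permutation test of a single value cannot go below p = 0.333, so none was used.

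The members and lists were chosen with earlier results of these data known. Of 121 members, 116 are in 14 lists by subcomplex; 11 had no symbol in the table, 7 of which were named from its descriptions or a reference table of gene names. Genes named are, per comparison, the 12 called members with the largest change that averaged 5 FPKM or more in the higher stage and whose libraries do not overlap; per subcomplex, the member with the smallest p of the F test and that with the highest FPKM; related pairs; and up to 4 called genes of each outside list. Other genes named, SF3B1, CDC5L, SMNDC1, SART1, SRSF1 and PRPF8 among them, were chosen after their values were seen; a few that qualified are not reported here. Alternatives were no filter or a stricter one (5 FPKM in 2 libraries), other scalings, DESeq2, counts divided by 4, limma on log2 FPKM with 1 or 0.1 added, fewer libraries and a replicate block. Added after seeing the data were an offset for transcript length, from a smoothed curve per library, and members without an overlapping gene.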

Additional observations from a re-analysis of the deposited data

How the results depend on the processing

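Counts of members called stayed within 1.5 times of those reported under the alternatives run, with 8 exceptions. Of these, 4 are the counts of AFE against DE without either AFE library (8 higher and 20 lower without replicate 1, 7 and 16 without replicate 2). In LPO against AFE, 33 members were higher with library totals, 33 with limma on log2(FPKM + 1) and 33 on log2(FPKM + 0.1), and in DE against PSC 11 were higher with the length offset. Leaving out 1 library gave 7 to 22 higher and 16 to 35 lower in AFE against DE, 15 to 19 and 76 to 82 in DE against PSC, 14 to 19 and 83 to 91 in LPO against AFE, 9 to 13 and 97 to 100 in LPO against PSC, and 116 to 119 by the F test. A lone library is then assumed to vary like the other stages. Of 2723 single-gene values under other settings, 2638 kept direction and call, 62 lost the call and 23 reversed; of 1984 with 1 library left out, 100 lost the call and 0 reversed. The cause of the reversals was not tested. In LPO against AFE, the log2 change became 0.03 (library totals), 0.04 and 0.04 (limma) for DHX38, 0.16, 0.15 and 0.17 for NCBP1, and 0.23, 0.23 and 0.24 for SRSF1, which also had 0.02 with the FPKM filter. The length offset gave 0.39 for SNRNP27, 0.23 for BUD31, -0.23 for TRA2A, -0.05 for U2SURP and -0.27 for SRSF10. In LPO against PSC, library totals and limma gave 0.03, 0.02 and 0.02 for ENSSSCG00000015988, and the offset gave -0.01 for SMNDC1. In DE against PSC, HNRNPK had -0.02 with DESeq2's size factors, -0.02 with its Wald test and -0.13 with the offset, and SRSF4 -0.09 with the offset.

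The labels do not say whether the replicate numbers pair samples across stages. Deviations of same-numbered libraries correlated at -0.0136 to 0.00782 across genes. Paired libraries without a shared effect could give such values too, so they do not settle the pairing. With the replicate block, 17 members were higher and 81 lower in DE against PSC, 15 and 30 in AFE against DE, 16 and 88 in LPO against AFE, and 12 and 98 in LPO against PSC. Single low genes such as HSPA1L are limited by depth, since about 4 counts stand for 1 read pair.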

Other observations

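Splicing regulators that differ between cell types are a list outside the pathway. Of 33 tested, 15 were called higher, 4 lower and 14 neither in LPO against AFE (30.2% and 29.6% of all genes). MBNL2, a muscleblind protein, had 115 and 109 CPM in LPO, against 11.1 and 11.5 CPM in AFE (log2 change 3.31, SE 0.21, adjusted p = 5.01e-06 by edgeR). QKI had 187 and 177 CPM in LPO, against 54.4 and 47.9 CPM in AFE (log2 change 1.83, SE 0.11), and RBFOX2 had 110 and 109 CPM in LPO, against 37.5 and 34.6 CPM in AFE (log2 change 1.60, SE 0.10). RBM5 had 415 and 409 CPM in LPO, against 174 and 168 CPM in AFE (log2 change 1.27, SE 0.07). RBM38 went down, with 9.22 and 10.52 CPM in LPO, against 38.2 and 37.9 CPM in AFE (log2 change -1.95, SE 0.11). The epithelial regulator ESRP1 had a log2 change of 0.52 and was called higher, and ESRP2 was not called. The connective tissue genes that rose in LPO stand beside these values too, and their part was not tested.

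The minor spliceosome removes a rare class of introns with its own snRNPs. Of 11 of its proteins, 6 fell in LPO against AFE (54.5%, beside 29.6% of all genes) and 3 rose (27.3%, beside 30.2%). SNRNP25 had 9.73 and 10.96 CPM in LPO, against 143 and 134 CPM in AFE, the largest fall in the list (log2 change -3.74, SE 0.13, adjusted p = 4.1e-07). ZMAT5 had 8.37 and 8.17 CPM in LPO, against 35.6 and 41.4 CPM in AFE. RNPC3, which binds the U11 and U12 snRNPs, had 22.5 and 20.4 CPM in LPO, against 4.13 and 5.52 CPM in AFE (log2 change 2.15, SE 0.19, adjusted p = 3e-05). Of 42 tested genes that are in the subcomplex lists but not among the members, 27 were lower in LPO against AFE (64.3%, beside 29.6%). Another 10 were higher (23.8%, beside 30.2%). Among them SRRM1 (log2 change 2.63) and PRPF4B (2.79) were higher and DDX39A (-2.60) and SAP18 (-2.40) lower.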
